A study of Mus musculus with 21 samples.

Results

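Glycolysis turns glucose into pyruvate in the cytosol, and lactate dehydrogenase turns pyruvate into lactate. The enzymes described here are 10 members of that route, given as a list of gene symbols and each found once among the 28987 gene identifiers of the expression table. They are the hexokinases Hk1 and Hk2, the isomerase Gpi1, the phosphofructokinases Pfkl and Pfkp, the aldolase Aldoa, the kinase Pgk1, the enolase Eno1, the pyruvate kinase Pkm and the lactate dehydrogenase Ldha. Hexokinase traps glucose in the cell, phosphofructokinase makes the committed step, and pyruvate kinase makes the last ATP of the route. Quiescent haematopoietic stem cells are known for relying on glycolysis more than on mitochondrial respiration, and hypoxia-inducible factors are known activators of many of these genes.

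RNA was measured in 21 libraries of sorted mouse bone marrow cells, with 3 libraries in each of 7 groups. LT-HSC, the long-term stem cells, gave 15 libraries, and the multipotent progenitors (MPP, sorted as MPP3 and MPP4) gave 6. Batch 1 holds LT-HSC and MPP of RXR knockouts, labelled VaviCre+Rxrabfl/fl, and of floxed controls, labelled Rxrabfl/fl, which carry the floxed alleles and no Cre. Batch 2 holds LT-HSC only, of knockouts with an added floxed allele (Vav1Cre+Rxrabfl/fl Myclfl/+), of knockouts (Vav1Cre+Rxrabfl/fl) and of Cre controls (Vav1Cre+WT), which carry Cre and no floxed allele. The labels write the added allele as Mycl in titles and as Myc in descriptions, and Myc allele is used here for this heterozygous change. RXR is the nuclear receptor that partners retinoic acid, LXR, PPAR and vitamin D receptors, and Vav1 drives Cre in blood cells generally, so the deletion is not limited to stem cells. Cells came from pooled animals whose age the labels do not give, and p-values measure the spread between such pools.

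The labels were checked on an Rxra junction that skips an exon. Its percent spliced in (PSI, the share of junction reads on the examined form, 0 to 1) was 0.938 in knockout LT-HSC 1 and 1.0 and 0.5 in knockout MPP 1 and 3, with no value in the other 3 knockout libraries of batch 1, and at most 0.1 in the floxed controls. In batch 2 it was 0.647, 0 and 1.0 in the libraries with the Myc allele, and at most 0.0127 in the 3 libraries labelled knockout, against 0 in the Cre controls. The junction therefore did not set the labelled knockouts of batch 2 apart from controls, nor the Myc allele library 2, and these are called labelled knockouts below. Rxrb levels were lower without overlap in knockouts than in floxed controls (means 8.22 against 14.1 rescaled TPM in LT-HSC). All 3 Myc allele libraries, library 2 included, had less Rxrb than every Cre control (means 8.75 against 14.4). Rxrb in the labelled knockouts overlapped with the Cre controls (mean 13.2). Rxra levels overlapped between knockouts and floxed controls in LT-HSC and MPP. Summed LT-HSC markers stood at 522 to 918 rescaled TPM in LT-HSC and 252 to 343 in MPP, and summed MPP markers at 1129 to 2164 in MPP and 42.0 to 117 in LT-HSC. Depth is unknown, since the files give TPM, an abundance corrected for transcript length. A single identifier took 10.6% to 51.8% of each library's TPM, so values were divided by a median-of-ratios factor and are called rescaled TPM, a per-length scale. In bulk samples, fewer cells of a type and less RNA per cell cannot be told apart.

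All 10 enzymes passed the filter on low values in every comparison. Over the 21 libraries, the level order by median rescaled TPM was Ldha (226), Aldoa (119), Gpi1 (106), Pkm (97.4), Pgk1 (75.9), Eno1 (68.7), Hk1 (37.4), Hk2 (32.8), Pfkp (27.0) and Pfkl (17.1). Most neighbours in this order overlap in their ranges: Gpi1 spanned 68.3 to 195 and Pkm 54.6 to 129. Ldha did not overlap with Aldoa, at 182 to 314 against 90.4 to 166. Hk1 varied most, 3.74-fold between its lowest and highest library, and Ldha least, 1.73-fold.

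**Figure D1:**
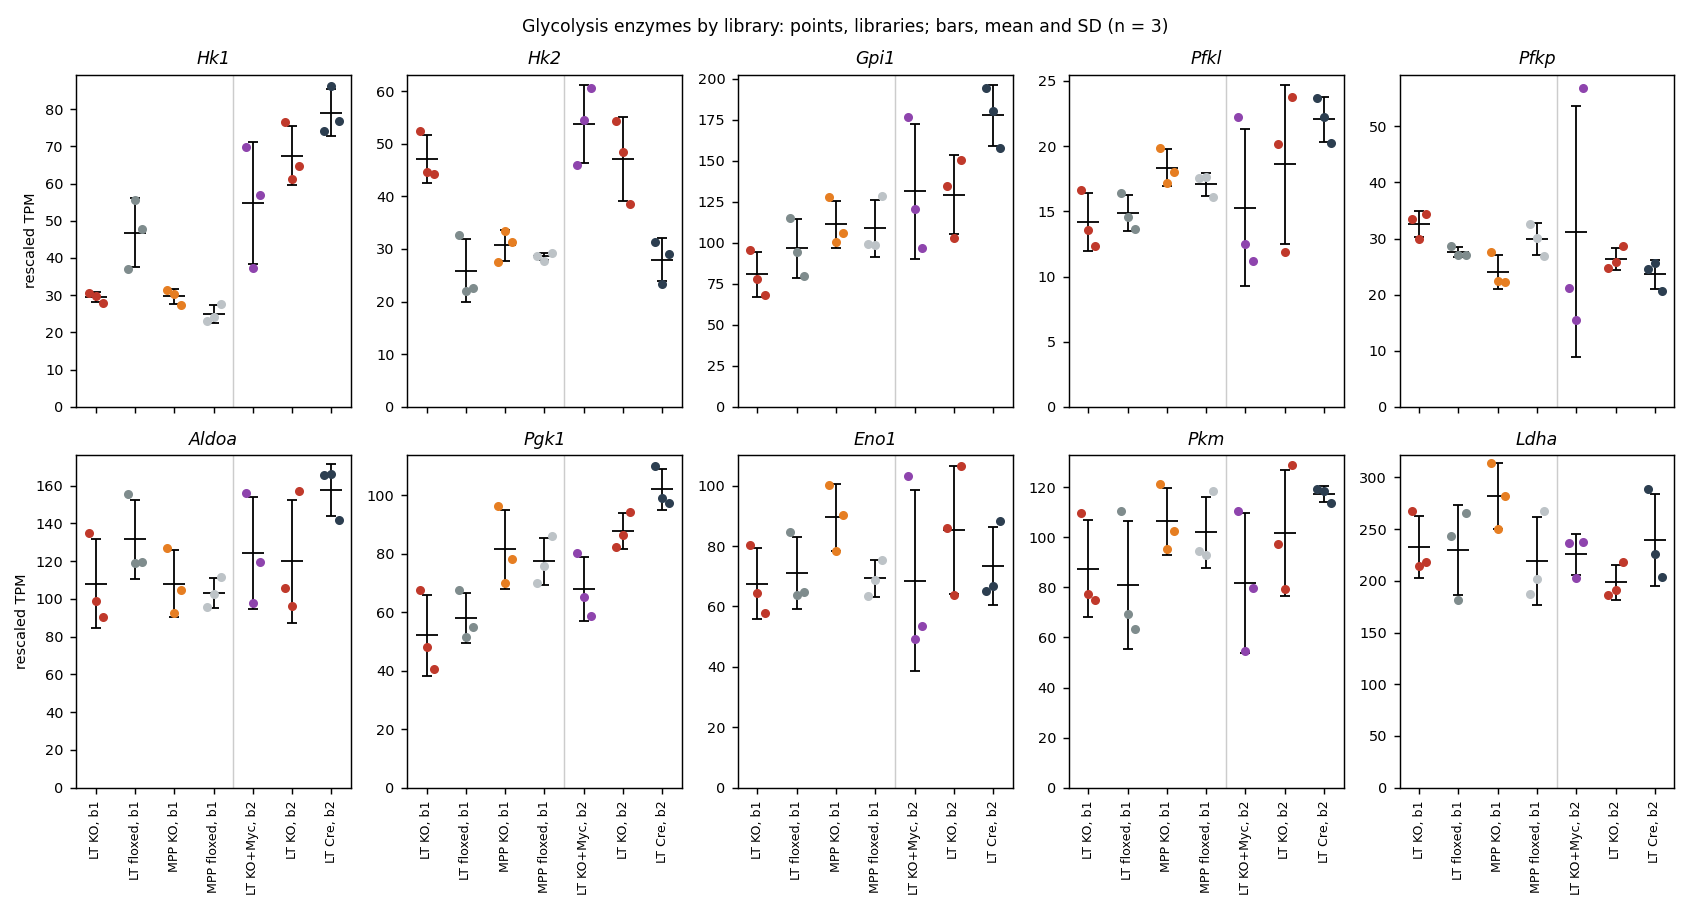
Rescaled TPM (y axes, from 0) of each enzyme in the 7 groups (x axes; b1 and b2 are batches 1 and 2), with points for libraries and bars for mean and SD of 3. Hk2 is at 44.3 to 52.4 in knockout LT-HSC of batch 1, above the floxed controls at 22.1 to 32.7, and Hk1 is highest in the Cre controls at 74.1 to 86.1.

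The enzymes did not vary as one block. Pearson's r of each enzyme with the mean of the other 9, over 21 libraries on the log2 scale, was 0.82 for Pkm, 0.76 for Gpi1, 0.75 for Aldoa, 0.74 for Pfkl, 0.71 for Pgk1 and 0.59 for Eno1. It was lower for Hk1 (0.39) and Ldha (0.26), and below 0 for Hk2 (-0.20) and Pfkp (-0.23). The 21 libraries share batches and cell types, so these are descriptions. Of 15159 other genes, the 5 whose profile was most like the enzymes' mean were Dbnl (r = 0.95), Arpc2 (0.91), Iscu (0.90), Rac1 (0.90) and Kxd1 (0.87).

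In LT-HSC of batch 1, Hk2 rose and Hk1 fell in RXR knockouts, and the other 8 enzymes did not pass the test. Hk2 (ENSMUSG00000000628, mm10 chromosome 6, 82725025 to 82774454) encodes the inducible, mitochondria-binding hexokinase of growing cells. It had 52.4, 44.5 and 44.3 rescaled TPM in knockout LT-HSC 1, 2 and 3, against 32.7, 22.1 and 22.7 in the floxed controls. Every knockout library stood above every control. The log2 change was 0.86 ± 0.15 (SE; 95% interval 0.54 to 1.18), which is 1.82-fold (limma adjusted p = 0.016). Hk1 (ENSMUSG00000037012, chromosome 10, 62268855 to 62379920) encodes the hexokinase that most tissues express steadily. It had 30.6, 29.9 and 28.0 rescaled TPM in the knockouts, against 37.0, 55.6 and 47.9 in the controls, again with no overlap, for a log2 change of -0.63 ± 0.14 (limma adjusted p = 0.0334). Of all 14621 genes tested, 5.05% passed in this comparison with 2.35% higher and 2.7% lower, and 2 of the 10 enzymes passed. Leaving out 1 library moved the 738 genes called to between 23 (without knockout 3) and 1649 (without knockout 1). It was 126 without knockout 2 and 397 without floxed control 2. On deposited TPM the split was 6614 higher and 86 lower, against 343 and 395 on rescaled TPM. Groups did not overlap for 25.5% of all genes.

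The scale of the values decided the Hk1 result but not the direction of Hk2. On deposited TPM, the median of all genes lay 0.52 higher in the knockouts, Hk2 was at 1.47 (limma adjusted p = 0.00274) and Hk1 at -0.02 (limma adjusted p = 0.929). The identifier that takes most of the TPM peaked in floxed control 2. With that identifier left out, Hk2 was at 1.18 (limma adjusted p = 0.00432) and Hk1 at -0.33 (limma adjusted p = 0.145). On rescaled TPM, Hk2 lost its call without knockout 3 (0.90, limma adjusted p = 0.0782). Hk1 lost its call there without floxed control 2 or 3, or knockout 2 or 3 (limma adjusted p = 0.0525 to 0.16). Summed neutrophil markers were at 112 to 1006 rescaled TPM in the knockouts and 36.0 to 92.4 in the controls, and each of the 8 markers reached 1 in a knockout library. Summed erythroid markers were at 91.9 to 164 in the knockouts and 190 to 371 in the controls. Summed B cell markers were at 257 to 799 in the knockouts and 15.7 to 224 in the controls, although Cd79a, Ms4a1, Ebf1 and Pax5 stayed under 1 in both. Their part in the Hk1 and Hk2 changes was not tested.

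The sequences before the transcription starts of the 2 genes that passed are shown because hypoxia factors and MYC are known to bind short motifs of the E-box and hypoxia-response kind in such windows. Capitals mark ACGTG, the hypoxia-response core, and GCGTG, searched on both strands, in the 250 bases before each RefSeq start (GRCm38.p6, minus strand for all 3).
Hk2, chr6:82774455-82774704: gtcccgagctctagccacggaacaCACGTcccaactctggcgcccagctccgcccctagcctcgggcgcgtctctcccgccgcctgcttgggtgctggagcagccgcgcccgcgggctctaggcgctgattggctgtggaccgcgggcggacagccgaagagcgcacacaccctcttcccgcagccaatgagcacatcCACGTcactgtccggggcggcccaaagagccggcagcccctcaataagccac
Hk1, distal start, chr10:62379909-62380158: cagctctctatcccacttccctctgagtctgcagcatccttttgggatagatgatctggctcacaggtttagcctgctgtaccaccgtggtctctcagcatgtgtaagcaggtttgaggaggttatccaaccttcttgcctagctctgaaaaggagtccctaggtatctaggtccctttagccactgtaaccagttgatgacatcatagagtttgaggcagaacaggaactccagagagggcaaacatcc
Hk1, second start, chr10:62340422-62340671: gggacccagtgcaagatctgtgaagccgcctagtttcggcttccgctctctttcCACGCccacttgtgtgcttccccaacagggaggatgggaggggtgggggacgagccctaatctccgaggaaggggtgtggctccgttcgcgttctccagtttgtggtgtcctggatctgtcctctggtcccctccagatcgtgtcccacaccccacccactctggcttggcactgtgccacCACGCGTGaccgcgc
The Hk2 window holds ACGTG at 2 places and GCGTG at none, the distal Hk1 window holds neither, and the window of the second Hk1 start holds 3 matches of GCGTG, of which the last 2 overlap, and none of ACGTG. Windows of nearby starts overlap, as in Aldoa and Eno1, so the same stretch can count more than once below. Of 32851 windows of this length in the table, 16.6% hold ACGTG and 28.2% hold GCGTG, against 6 (35.3%) and 7 (41.2%) of the enzymes' 17 windows. The E-box CACGTG was in 6.02% of all windows and in 1 of the enzymes' windows (Ldha), with none in those of Hk1 and Hk2. AGGTCA, the half-site bound by RXR and its partners, was in 14.0% of all windows and in 4 (23.5%) of the enzymes' windows (Eno1, Aldoa and Pkm), with none in those of Hk1 and Hk2. A match is a run of letters and not a measured binding site.

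The remaining enzymes of LT-HSC in batch 1 stayed within a narrow span of the controls. Their log2 changes ran between -0.29 for Aldoa and 0.23 for Pfkp. Ldha (chromosome 7, 46842274 to 46855627), which makes lactate, was at 267, 214 and 218 rescaled TPM in the knockouts and 244, 182 and 265 in the controls, which overlap. The platelet-type phosphofructokinase Pfkp (chromosome 13, 6579874 to 6649060) was at 33.4, 30.0 and 34.4 in knockouts and 28.6, 27.0 and 27.0 in controls, with no overlap (limma adjusted p = 0.228). Pfkp passed with the dominating identifier left out, at 0.54 on the log2 scale (limma adjusted p = 0.0226). Pfkl (chromosome 10, 77986947 to 78009807), the liver-type form, was at -0.07 on the log2 scale, but at 0.52 on deposited TPM (limma adjusted p = 0.0345), where Hk2, Pfkp, Pkm and Ldha also passed and 45.2% of all genes did. On that scale 5 of the 10 enzymes changed sign: Pfkl, Gpi1 (0.37), Aldoa (0.33), Pgk1 (0.44) and Eno1 (0.55). The members' median log2 change was -0.07, and that of all genes -0.02.

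In batch 2, the labelled knockouts again had more Hk2 than Cre controls, without passing the test over all genes. Hk2 had 54.3, 48.5 and 38.6 rescaled TPM in labelled knockouts 4, 5 and 6, against 31.3, 23.4 and 29.1 in the Cre controls. The groups did not overlap, as for 17.2% of all 13571 genes. Those of Gpi1 (means 129 against 178) and Pgk1 (87.7 against 102) did not overlap either, and both were lower in the labelled knockouts. The log2 change of Hk2 was 0.73 ± 0.20 (SE; 95% interval 0.30 to 1.17; limma adjusted p = 0.935). Hk1 was at 76.6, 61.2 and 64.7 in labelled knockouts and 74.1, 86.1 and 76.7 in Cre controls, which overlap. No enzyme passed in this comparison, in which 0.0589% of all genes did, and the enzymes' median log2 change was -0.23 against -0.02 for all genes. Only Hk2 had p under 0.05 among the 10 before adjustment. Summed neutrophil markers were at 9.15 to 15.8 in the labelled knockouts and 3.99 to 45.4 in the Cre controls, with Mmp8, Ltf and Retnlg under 1 in all 6 libraries. Some other marker sums did not overlap between these groups. Those of T and NK cells were at 26.2 to 37.5 in labelled knockouts and 40.3 to 83.5 in Cre controls. Gzma, Cd3g and Cd3e stayed under 1 in both. Those of monocytes, macrophages and dendritic cells were at 91.7 to 103 and 115 to 130. Of that list, every marker but Lyz2 stayed under 1 in the Cre controls. Ly86, Csf1r, Vcam1 and Ccr2 did so in the labelled knockouts too. MPP markers stood at 60.5 to 68.8 in labelled knockouts and 81.9 to 117 in Cre controls, with Irf8 and Dntt under 1 in both. Their part in the Hk2 difference was not tested.

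Over both batches, Hk2 was the enzyme whose 3 knockout and 3 labelled knockout LT-HSC libraries did not overlap with the 6 controls, at 38.6 to 54.3 against 22.1 to 32.7 rescaled TPM. In all, 0.703% of genes had no overlap in this comparison. With batch as a term, its log2 change was 0.80 ± 0.13 (SE; 1.74-fold; limma adjusted p = 0.0688). No gene of 14377 passed there (0.0%), although 2918 had limma p under 0.05 unadjusted and 61 (0.421%) passed on deposited TPM. Leaving out labelled knockout 6 of batch 2 brought Hk2 past the threshold (0.86, limma adjusted p = 0.0205), as it did 693 of 14321 genes. The knockout effect on Hk2 in batch 1 minus that in batch 2 was 0.13 (95% interval -0.43 to 0.69, limma adjusted p = 0.91), a test that 0.139% of all genes passed. Batch 2 uses a Cre control and batch 1 a floxed one, so batch and control genotype cannot be told apart. Without the labelled knockouts of batch 2, the value is that of batch 1, 0.86.

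The Myc allele added to the labelled knockout moved no enzyme past the test, in a comparison with no called gene at all (0.0% of 13571, with 736 at limma p under 0.05 unadjusted). Hk2 had 45.9, 54.5 and 60.6 rescaled TPM in Myc allele libraries 1, 2 and 3, against 54.3, 48.5 and 38.6 in the labelled knockouts. Those groups overlap. Myc itself, a known activator of glycolysis genes, was at 71.4 to 120 with the allele and 134 to 149 in the labelled knockouts. Against Cre controls, which both comparisons share, Hk2 was at 0.92 ± 0.20 (limma adjusted p = 0.264), and Pgk1 at -0.59 ± 0.16 (limma adjusted p = 0.523). In that comparison 0.0811% of genes passed and no enzyme did. Without Myc allele library 1, Hk2 (1.03, limma adjusted p = 0.0333) and Pgk1 (-0.71, limma adjusted p = 0.0358) passed, with 792 of 13443 genes in all. Without library 2, which lacks the Rxra skipping junction, Hk2 was at 0.90 (limma adjusted p = 0.473). Pfkp had 21.2, 15.6 and 56.8 in these libraries, so library 3 stands far above the other 2.

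**Figure D2:**
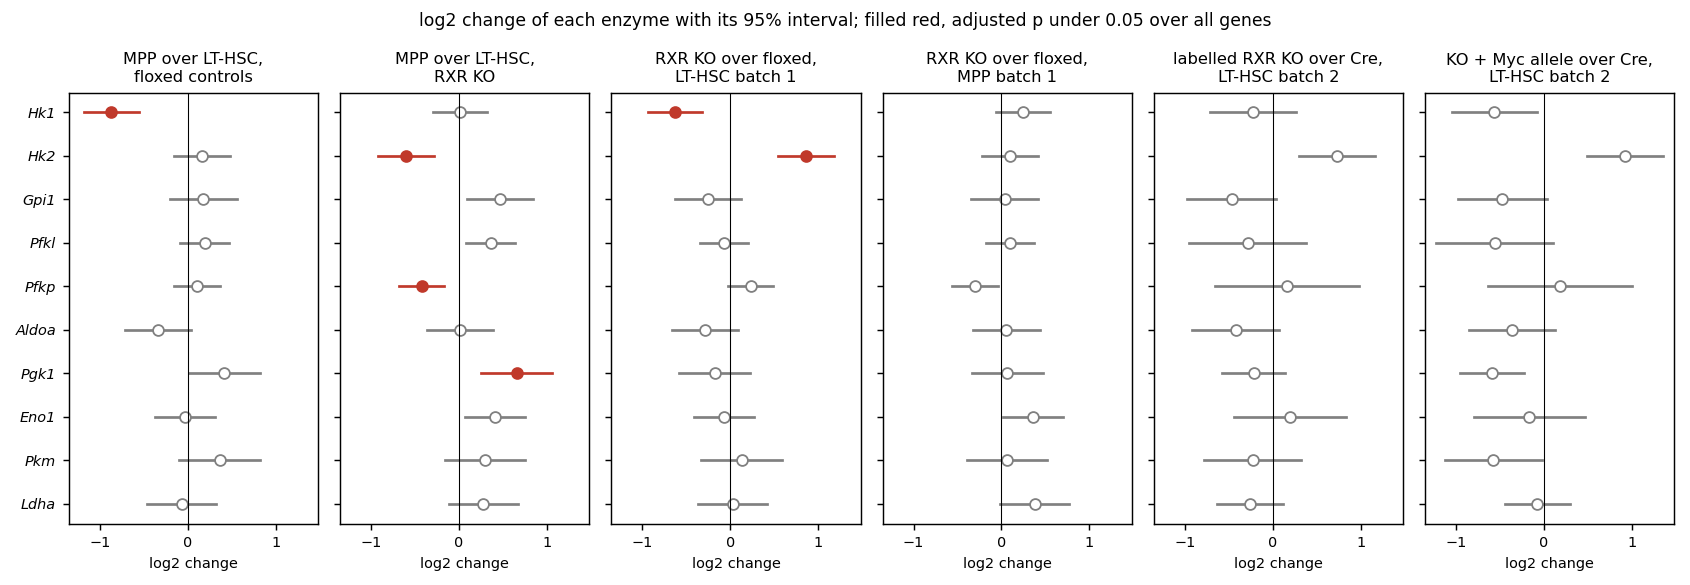
Log2 change (x axes, first-named group over second) of each enzyme (rows) in 6 comparisons, with 95% intervals as bars; filled red points passed an adjusted p of 0.05 over all genes. Hk2 is above 0 in every LT-HSC knockout panel, at 0.86 in batch 1, 0.73 for the labelled knockouts of batch 2 and 0.92 with the Myc allele, and at 0.10 in MPP.

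In MPP, no enzyme passed between knockouts and floxed controls, a comparison in which 0.595% of all genes did. Hk2 was at 27.6, 33.4 and 31.3 rescaled TPM in knockout MPP and 28.7, 27.8 and 29.2 in control MPP, a log2 change of 0.10 with a 95% interval of -0.22 to 0.42. Eno1 (chromosome 4, 150236708 to 150248879), which makes phosphoenolpyruvate, and Pfkp were the 2 enzymes under 0.05 before adjustment. Eno1 was at 100, 78.2 and 90.1 in knockouts and 63.5, 68.7 and 75.5 in controls, a log2 change of 0.36 ± 0.16 (limma adjusted p = 0.47), and Pfkp was at -0.30 ± 0.12 (limma adjusted p = 0.397). The knockout effect in MPP minus that in LT-HSC was -0.76 ± 0.21 for Hk2 (limma adjusted p = 0.255) and 0.88 ± 0.20 for Hk1 (limma adjusted p = 0.234). Neither difference passed, and 0.0274% of all genes did.

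Between cell types, Hk1 was lower in MPP than in LT-HSC of floxed controls, and no other enzyme passed. Hk1 had 23.0, 24.1 and 27.6 rescaled TPM in MPP, against 37.0, 55.6 and 47.9 in LT-HSC. Its log2 change was -0.87 ± 0.14 (limma adjusted p = 7.77e-04), and 24.3% of all genes passed, 12.2% of all genes lower in MPP. In knockouts, Hk1 was alike in level, at 29.7 in MPP and 29.5 in LT-HSC, with a log2 difference of 0.01 (95% interval -0.30 to 0.32). There Hk2 was lower in MPP, at 27.6 to 33.4 against 44.3 to 52.4 (log2 change -0.60 ± 0.15, limma adjusted p = 0.0109). Pfkp was also lower, at 27.6, 22.5 and 22.2 in MPP and 33.4, 30.0 and 34.4 in LT-HSC (-0.42 ± 0.12, limma adjusted p = 0.0215). Pgk1 (chromosome X, 106187100 to 106203699), which makes the first ATP of the route, was higher, at 96.3, 70.0 and 78.3 in MPP and 67.5, 48.2 and 40.5 in LT-HSC (0.66 ± 0.19, limma adjusted p = 0.0225, and 0.255 on deposited TPM). Of all genes, 23.7% passed in the knockouts, 12.1% higher and 11.6% lower in MPP, and 3 of the 10 enzymes did. On deposited TPM the split of all genes was 2305 higher and 834 lower in MPP of floxed controls, and 592 higher and 2297 lower in MPP of knockouts, against 1761 and 1788, and 1768 and 1690, on rescaled TPM.

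Gpi1 (chromosome 7, 34201327 to 34230336), Aldoa (chromosome 7, 126795234 to 126800994) and Pkm (chromosome 9, 59656576 to 59679372) did not pass in either cell type comparison. With the shared source name of the 2 cell types as a block, Pfkl also passed in knockouts (limma adjusted p = 0.0341, against 0.0577 without). Summed B cell markers were at 2101 to 11440 rescaled TPM in MPP of floxed controls, against 15.7 to 224 in LT-HSC. In knockouts they were at 608 to 6174 in MPP and 257 to 799 in LT-HSC, which overlap. Ms4a1 stayed under 1 in every MPP library. Their part in these differences was not tested. The calls for Pfkp and Pgk1 were lost without 4 of the 6 libraries, one at a time, and that for Hk2 without knockout MPP 1 (limma adjusted p = 0.0506).

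The 3 hexokinases were also taken as shares of their summed level, which no scaling of a library changes. Hk2 made up 49.6% ± 3.7 (SD, n = 3) of it in knockout LT-HSC of batch 1 and 32.7% ± 8.7 in floxed controls. In batch 2 the share was 41.9% ± 4.3 with the Myc allele, 38.2% ± 3.0 in labelled knockouts and 24.4% ± 4.0 in Cre controls. In MPP it was 30.0% ± 1.2 in knockouts and 35.3% ± 1.8 in controls. The ratio of Hk2 to Hk1, chosen after its values were seen and so given with no test, was 1.72, 1.49 and 1.58 in knockout LT-HSC of batch 1 and 0.886, 0.397 and 0.473 in controls. It was 0.709, 0.791 and 0.597 in labelled knockouts of batch 2 and 0.423, 0.272 and 0.379 in Cre controls. With the Myc allele it was 0.6565, 1.459 and 1.065. In MPP the ratio was 0.879, 1.10 and 1.14 in knockouts and 1.25, 1.15 and 1.06 in controls, which overlap. Hk3, which is known from myeloid cells, held 19.2% ± 5.2 in knockout LT-HSC of batch 1 against 8.55% ± 1.9 in floxed controls. In batch 2 Hk3 held 15.4% ± 8.9 with the Myc allele, 6.89% ± 1.9 in labelled knockouts and 6.87% ± 1.8 in Cre controls. It held 40.9% ± 4.5 in knockout MPP against 34.1% ± 0.93 in control MPP. Summed neutrophil markers stood at 79.0 to 523 rescaled TPM in knockout MPP and 12.9 to 39.4 in control MPP, and their part in the Hk3 share was not tested.

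**Figure D3:**
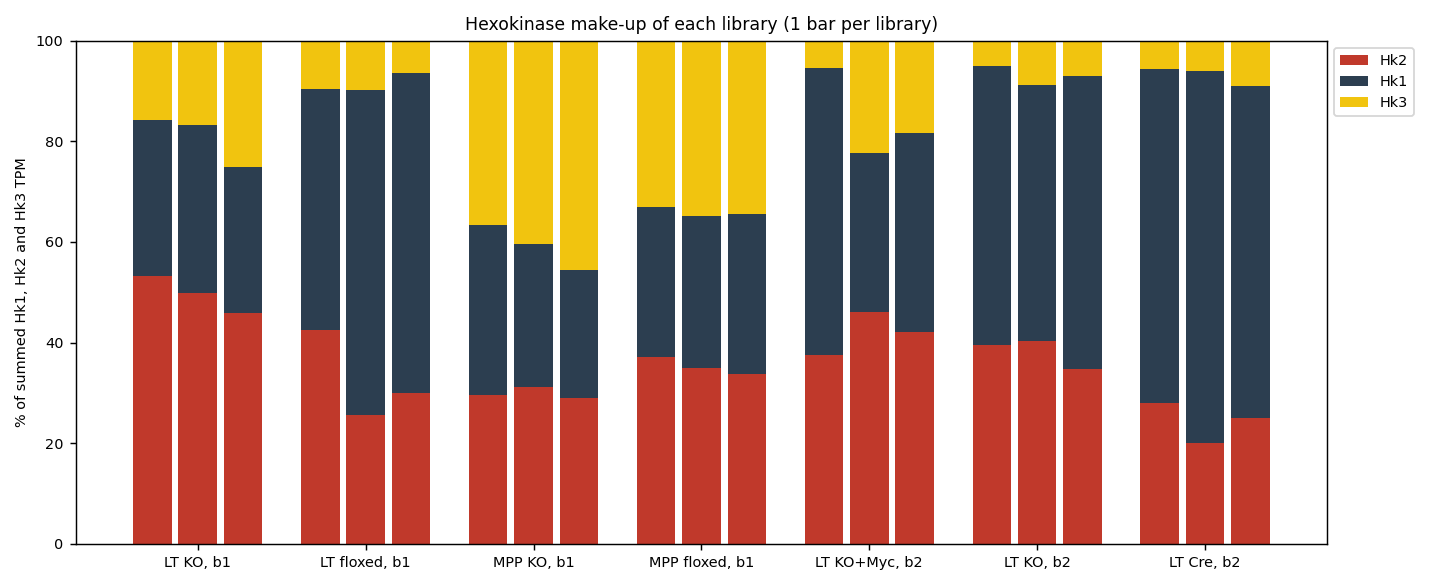
Each bar is 1 library, split into Hk2, Hk1 and Hk3 as percent of their summed TPM (y axis). Hk2 fills 45.9% to 53.3% of knockout LT-HSC of batch 1, against 25.6% to 42.5% of floxed controls, and Hk1 fills 66.0% to 73.9% of the Cre controls.

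Around the 10 enzymes, 79 genes of 6 lists were read in the same fits. In LT-HSC of batch 1, where 5.05% of all genes passed, among 11 other glycolytic enzymes tested, Hk3 rose (log2 change 1.29, limma adjusted p = 0.0159) and Pklr, the pyruvate kinase of red cells and liver, fell (-2.06, limma adjusted p = 0.0206), as did the muscle-type phosphofructokinase Pfkm (-0.45, limma adjusted p = 0.0402, and 0.13 on deposited TPM). Hk3 stood at 15.5, 15.0 and 24.3 rescaled TPM in the knockouts and 7.33, 8.45 and 4.77 in the controls, beside the neutrophil markers given above. Pklr was at 1.48, 1.26 and 1.10 in the knockouts and 4.93, 5.97 and 19.7 in the controls, beside the erythroid markers. Of 13 genes for pyruvate entry to mitochondria, the inhibitor kinase Pdk4 (-0.79, limma adjusted p = 0.0334) and the dehydrogenase subunit Pdha1 (-0.59, limma adjusted p = 0.032, and 0.01 on deposited TPM) fell. Among 14 hypoxia targets, the carbonic anhydrase Car9 rose (0.61, limma adjusted p = 0.042). Each of these 6 calls was lost without knockout 3 (limma adjusted p = 0.0809 to 0.211), when 23 of all genes passed. All but that of Hk3 were also lost without knockout 2, those of Pfkm, Pdha1 and Car9 without floxed control 2, and those of Pfkm and Car9 without floxed control 3. No gene passed among 15 for transport and flux control, 8 of the pentose phosphate branch and 9 hypoxia factors.

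In knockout MPP against control MPP no gene of the 6 lists passed, and in batch 2 only Eno1b did. Between cell types, more genes of the lists passed, as did more of all genes, at 24.3% in controls and 23.7% in knockouts. The other glycolytic enzymes had 2 higher and 4 lower of 11 in MPP of controls, and 3 and 3 in knockouts. Transport and flux control had 2 and 1 of 15 in controls, and 1 and 2 in knockouts. Pyruvate entry had 0 and 3 of 13, and 1 and 2. Hypoxia targets had 2 and 1 of 14, and 0 and 1. In knockouts, 5 of 8 pentose phosphate genes rose in MPP and none fell, against 12.1% of all genes higher and 11.6% lower, with Pgls at 0.86, Tkt at 0.76 and G6pdx, the entry enzyme, at 0.72 as the largest. On deposited TPM none of the 8 passed, against 19.5% of all genes, while the median of all genes lay at -0.20. In floxed controls 1 of 8 passed, Pgls (0.67), a call lost without any one of 5 of the 6 libraries, LT-HSC 3 being the exception (limma adjusted p = 0.0513 to 0.097). The hypoxia factor list had 2 higher and 2 lower of 9 in MPP in both genotypes, where 24.3% of all genes passed in controls and 23.7% in knockouts: Egln3, an oxygen-sensing hydroxylase, rose by 1.16 in controls and 1.59 in knockouts, and Hif3a, a factor subunit, was at -2.0 and -1.68. Hk3 (1.90 in controls, 1.18 in knockouts) and the mutase Pgam1 (1.41 and 1.33) rose in MPP, while the heart-type lactate dehydrogenase Ldhb was at -0.99 and -1.35. The glucose transporter Slc2a3 was at -0.54 and -0.60, with its call lost in each genotype without any one of 4 libraries (LT-HSC 1 and 2 and MPP 1 and 3 in controls, LT-HSC 2 and 3 and MPP 1 and 3 in knockouts), and Slc2a6 at 1.52 and 1.49.

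Splice junctions of the enzymes were compared among 46443 events, of which 27 lie in 6 of the 10 enzymes and 20 are intron retention. Events lacking a value in any fitted library were not tested, which left 25 of the 27 in batch 1 and 23 in batch 2, and 3 of the 4 Hk2 events had gaps. None of those tested passed (adjusted p under 0.05 and a PSI difference of at least 0.1) in any of 7 comparisons. Of all events, 0.486% passed in MPP against LT-HSC of floxed controls, 0.305% in that of knockouts, 0.166% in knockout against floxed control LT-HSC and 0.199% in knockout against control MPP. In batch 2, 0.0389% passed in labelled knockouts against Cre controls, 0.0141% for the Myc allele against labelled knockouts and 0.0318% for it against Cre controls. Between 0 and 4 enzyme events per comparison had limma p under 0.05 unadjusted, and none passed on a logit scale. Pkm has a pair of exons of which transcripts use one, giving the M1 and M2 forms of pyruvate kinase. Its event (chromosome 9, examined junction 59672073 to 59675568), named a cassette exon in the table, had a PSI of 0.657, 0.701 and 0.657 in knockout LT-HSC of batch 1 and 0.668, 0.586 and 0.764 in floxed controls. It was 0.833, 0.614 and 0.869 with the Myc allele, 0.867, 0.900 and 0.800 in labelled knockouts and 0.850, 0.818 and 0.831 in Cre controls. In MPP it was 0.789, 0.703 and 0.807 in knockouts and 0.731, 0.746 and 0.772 in controls. Knockout and control groups overlap in each of these, and batches were not tested against each other. The examined Pkm junction ends at the downstream exon of the pair, and the competing one (59675195 to 59678044) leaves the upstream exon. A higher PSI of the Pkm event therefore means more use of the downstream exon. An Aldoa cassette exon (chromosome 7, examined junction 126797776 to 126799045) had 0.783, 0.847 and 0.852 in knockout MPP, against 0.933, 0.950 and 0.924 in knockout LT-HSC, a difference of -0.11 (limma adjusted p = 0.288). A value in every library was present for 23 enzyme events. Among these, the widest spread of group means was 0.458 for Pfkp, 0.310 for Hk1 and 0.152 for Hk2, each in an intron retention event. The means of the Pfkp event were 0.4905 to 0.5218 in groups of batch 1 and 0.7369 to 0.9487 in groups of batch 2. The SD within a group reached 0.2896 for the Hk1 event.

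**Figure D4:**
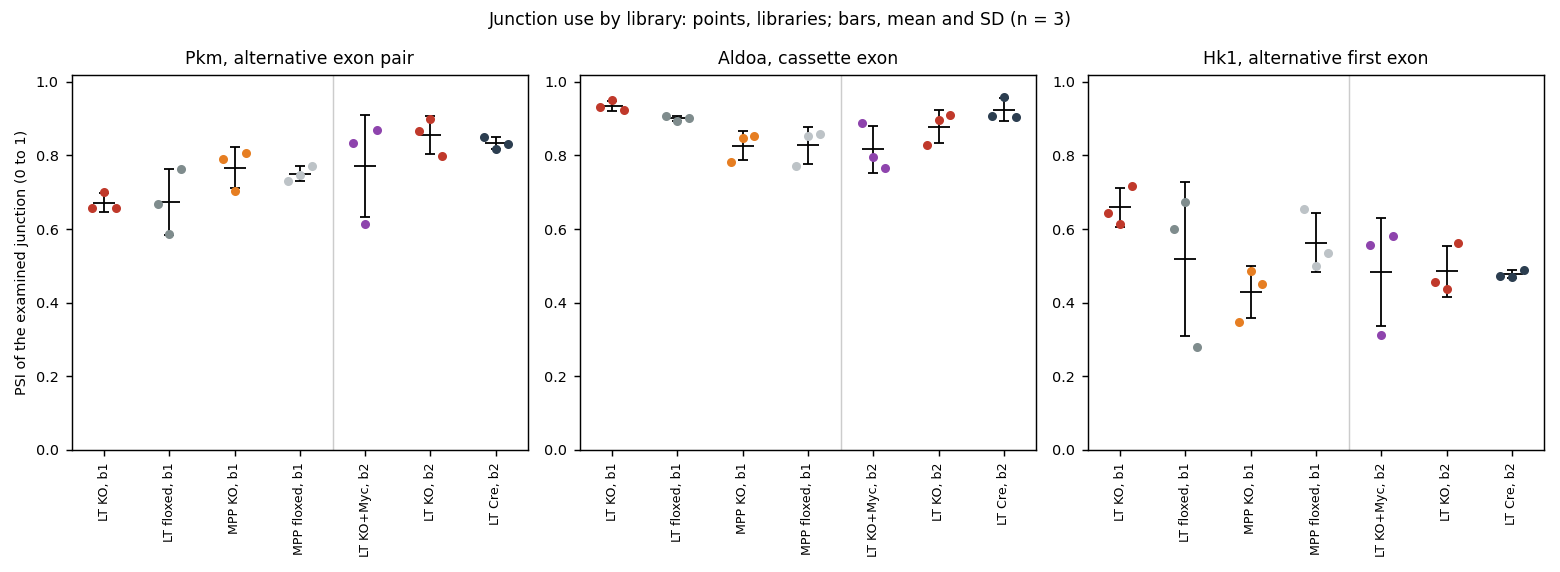
PSI (y axes, 0 to 1) of the Pkm, Aldoa and Hk1 events in each library (points), with mean and SD of 3. The Pkm event is at 0.657 to 0.701 in knockout LT-HSC of batch 1 and 0.800 to 0.900 in labelled knockouts of batch 2, and the Hk1 alternative first exon, chosen after its values were seen, spans 0.279 to 0.718.

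An Hk1 event between 2 first exons (chromosome 10, examined junction 62315548 to 62340013) was looked at after its values were seen, since the second start's window is printed above. The competing junction runs from 62315548 to 62327403, so the event does not set the 2 printed starts against each other. PSI of this Hk1 event was 0.644, 0.613 and 0.718 in knockout LT-HSC of batch 1 and 0.600, 0.673 and 0.279 in controls, and these groups overlap. A Pfkp intron retention event had a PSI of 0.912, 0.909 and 1.0 in knockout MPP and 0.532, 0.550 and 0.604 in control MPP. It missed the threshold (limma adjusted p = 0.0594). Its examined junction (chromosome 13, 6588653 to 6597859) is the spliced form, and the competing one (6593904 to 6593905) lies within it. A higher PSI of this event therefore means less retention. The reverse event had a mean PSI of 0.0 in knockout MPP and 0.13 in control MPP (limma adjusted p = 0.599).

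Eno1 has a near-identical copy, Eno1b, and reads may be split between them, so the level of either is uncertain. Eno1b was at 42.5, 38.5 and 9.39 rescaled TPM in Cre controls and at most 0.261 in every other library. Eno1 itself was at 65.2, 66.9 and 88.2 in the Cre controls, where the sum of both was 108, 105 and 97.6. That sum was 86.1, 63.8 and 106 in labelled knockouts of batch 2. Pgk1, Ldha, Aldoa and Gapdh also have processed copies in the mouse genome, which the deposited values could divide.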

How the data were processed

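Expression values are deposited TPM, made by the authors with kallisto on the mouse build mm10, per the submitters' processing notes; the version is not given in the sources used here. Splicing values are fractions (PSI) deposited by the authors, with STAR 2.6 named in the same notes, and the event caller is not given in the sources used here. Libraries came from 5 ng of RNA amplified with Ovation RNA-seq v2 and made with Nextera XT, per the labels' protocols.

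From these, each library was divided by a median-of-ratios factor over 14964 genes above 0 in all 21 libraries, genes reaching 1 rescaled TPM in 3 or more of a fit's libraries were kept, and limma 3.58.1 (R 4.3.3, with a variance trend) tested log2(value + 1). Fold changes are on that scale, which understates low genes. Batch 1 (12 libraries), batch 2 (9) and LT-HSC knockouts with controls of both batches were fitted separately. A gene passed at an adjusted p (Benjamini-Hochberg, all genes) under 0.05. PSI was tested with limma where every library of a fit had a value. The fits were tested on simulated data. Deposited TPM were also fitted, which was not chosen as the main scale because 1 identifier dominates it.

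LT-HSC and MPP libraries of batch 1 share source names in the descriptions, which pairs them: the correlation of their deviations was 0.0528 to 0.0853 in floxed controls and 0.165 to 0.553 in knockouts. The genes named are all 10 enzymes and, for each list, up to 3 passed genes with the largest changes. The members and lists were chosen with earlier results of these data known. Symbols and positions are from RefSeq tables (GRCm38.p6), which also gave the promoter sequences. Figures were drawn with matplotlib 3.10.9. No sample was left out.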

Additional observations from a re-analysis of the deposited data

Results flagged for a closer look

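The knockout effect on Eno1b, the near-identical copy of Eno1, differed between batches in LT-HSC by a test of the difference itself. The effect in batch 1 minus that in batch 2 was 4.6 on the log2 scale (limma adjusted p = 0.00457). Eno1b was at most 0.261 rescaled TPM in the labelled knockouts of batch 2 and at 42.5, 38.5 and 9.39 in the Cre controls, while knockouts and floxed control LT-HSC of batch 1 had at most 0.173. The reads of Eno1 and Eno1b may be shared, and the Cre controls are the only group of their genotype.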

How the results depend on the processing

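Of 1360 values of single enzymes under other settings, 37 changed side of the threshold and 98 changed sign, 54 of these on leaving out 1 library and 23 on deposited TPM; of those that changed sign, Pfkl in knockout LT-HSC passed under a setting. On deposited TPM, the count of enzymes past the test was 5 in knockout against floxed control LT-HSC (2 on rescaled TPM) and 2 in MPP against LT-HSC of floxed controls (1), and the log2 changes of Pfkl (0.52), Pfkm (0.13) and Pdha1 (0.014) in knockout LT-HSC turned round, as did 4 other enzymes there that passed on neither scale. Quantile scaling gave 1 and 2 enzymes in those comparisons. No filter on low values gave 1 in knockout LT-HSC. Leaving out the dominating identifier gave 1 for LT-HSC of both batches (0). In knockout against floxed control LT-HSC, Hk1 then lost its call (limma adjusted p = 0.145) and Pfkp gained one (limma adjusted p = 0.0226). Leaving out 1 library at a time gave 0 to 2 enzymes in knockout against floxed control LT-HSC, 1 to 2 and 1 to 5 in MPP against LT-HSC of floxed controls and of knockouts, 0 to 2 for the Myc allele against Cre control, and 0 to 1 for both batches; splicing events numbered 0 to 1 in MPP against LT-HSC of floxed controls and in knockout MPP. The cause was not tested. Counts of all genes past the test on deposited against rescaled TPM were 6700 and 738 in knockout LT-HSC, 48 and 87 in knockout MPP, 61 and 0 for both batches, 184 and 20 for the difference between batches, and 12 and 4 for that between cell types. With the replicate number as a block, which the labels do not tie to a shared source between genotypes (correlations of -0.1545 to 0.2902), 1 enzyme passed in knockout LT-HSC, since Hk1 was at limma adjusted p = 0.0596. Besides Hk1 there and Pfkl in MPP against LT-HSC of knockouts, no enzyme's call changed under a block. Among the list genes in knockout LT-HSC, Pdk4 (0.0571), Pdha1 (0.0611), Car9 (0.069) and Pfkm (0.0797) lost their calls by limma adjusted p under that block. For the Myc allele comparisons no block could be fitted, since those libraries share no numbers with the other groups of batch 2. TPM keep no depth, so counting error is not known.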
